A study of Mus musculus with 24 samples.

Results

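The apolipoprotein genes are a family of 10 members here, *Apoa1*, *Apoa2*, *Apoa4*, *Apoa5*, *Apob*, *Apoc1*, *Apoc3*, *Apoe*, *Apom* and *Apoh*. They were taken as every non-control probe of the array whose RefSeq accession belongs to one of these genes, which gave 13 of 55681 probes and 10 of 21368 named genes. The arrays measured RNA of liver, brain, heart and skeletal muscle from 3 wild-type (WT) male mice and 3 male mice homozygous for a *Rap1* I312R knockin allele (*Rap1* KI/KI, RAP1 MUT in the labels). The knockin was made with CRISPR/Cas9 and crossed back 4 times to C57BL6, which the study's methods write as C57BL/6N. The substitution lies in the surface by which RAP1, a protein of the telomere complex, binds TRF2, and the question put to the arrays was how gene expression in each tissue changes when RAP1 is no longer held at telomeres. Every mouse gave all 4 tissues, so the 24 arrays come from 6 mice. Age was 5 months for one mouse of each genotype (WT1 and KI1) and 2 months for the remaining 4. The allele is present in every cell of the animal, and each tissue was homogenised as a mixture of its cell types. In such samples fewer cells of a type and less RNA per cell cannot be told apart.

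Apolipoproteins are the protein part of the particles that carry fat and cholesterol through blood. *Apob* is the structural protein of very low density and low density lipoproteins, while *Apoa1* and *Apoa2* are the main proteins of high density lipoprotein. *Apoc1*, *Apoc3*, *Apoa4*, *Apoa5* and *Apoe* exchange between particles and control lipase activity or receptor uptake. *Apom* carries sphingosine-1-phosphate, and *Apoh* (beta-2-glycoprotein I) binds phospholipids. Most are made by hepatocytes. *Apoe* is also made by astrocytes, where it carries lipid within the brain, and by macrophages.

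On the GRCm38.p6 assembly, 4 members lie side by side on chromosome 9 (*Apoa1*, 46228630 to 46230469; *Apoc3*, 46233050 to 46235636; *Apoa4*, 46240844 to 46243458; *Apoa5*, 46268608 to 46271921), within 43292 bases. The gap between *Apoa1* and *Apoc3* is 2580 bases and that between *Apoa4* and *Apoa5* is 25149 bases. *Apoc1* (19689480 to 19692659) and *Apoe* (19696244 to 19701310) are neighbours on chromosome 7, 3584 bases apart. The other 4 stand alone, *Apoa2* on chromosome 1 (171221564 to 171226379), *Apoh* on chromosome 11 (108395297 to 108414396), *Apob* on chromosome 12 (7977629 to 8016839) and *Apom* on chromosome 17 (35128997 to 35131801). RefSeq promoter windows, running from 250 bases before a transcription start to 50 after it, were matched for 8 members in 12 windows. The stretches just before the start of 3 members of the chromosome 9 group and of *Apob* are shown, because all 4 genes were high in liver and low elsewhere and yet differ in whether they hold a TATA box (TATAAA, in capitals). All lie on the plus strand of GRCm38.p6, are written 5′ to 3′ and stop before the first base of the RefSeq gene.
Apoa1, chr9:46228510-46228629: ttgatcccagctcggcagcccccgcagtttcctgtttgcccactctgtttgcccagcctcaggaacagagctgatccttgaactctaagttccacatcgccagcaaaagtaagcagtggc
Apoa4, chr9:46240724-46240843: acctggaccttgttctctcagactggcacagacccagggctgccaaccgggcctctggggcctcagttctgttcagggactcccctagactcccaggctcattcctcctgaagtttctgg
Apoa5, chr9:46268488-46268607: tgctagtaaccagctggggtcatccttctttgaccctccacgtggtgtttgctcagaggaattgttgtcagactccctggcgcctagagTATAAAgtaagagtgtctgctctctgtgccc
Apob, chr12:7977557-7977628: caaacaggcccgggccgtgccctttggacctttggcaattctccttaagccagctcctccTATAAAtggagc
In the *Apoa5* stretch the match began 31 bases before the start. In *Apob* it began 60 bases before the start listed in the table. TATAAA, searched on both strands, was found in 5 of the 12 windows, from *Apoa2*, *Apoa5*, *Apob* and *Apoe*, and in 13.6% of all 32851 windows of that length. Of these 5, 2 are overlapping *Apoa5* windows that hold the same match, so the count is not of separate sites. The *Apoa2* match began 212 bases before the start, and those of *Apoe* 100 and 96 bases before it. The HNF4 sequence CAAAGTCCA was found in none of the 12 and in 0.475% of all. A match is a match of letters only.

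Levels are given as log2 of the processed Cy3 intensity minus the same array's 75th percentile, so a level of 0 is the brightness of the probe at that percentile. Because probes differ in how they bind and label, a level is compared between samples and never between genes. The tissues carried their defining markers. The summed level of 8 hepatocyte genes ran from 11.1 to 12.1 in liver, that of 4 cardiomyocyte genes from 9.99 to 11.1 in heart, that of 4 skeletal muscle fibre genes from 10.8 to 11.3 in muscle and that of 4 neuron genes from 7.63 to 8.35 in brain, and in each case the other tissues lay below. The *Terf2ip* transcript, which encodes RAP1, differed by 0.12 (SE 0.27) in liver, -0.02 (0.24) in brain, -0.41 (0.23) in heart and -0.28 (0.21) in muscle between *Rap1* KI/KI and WT. No difference in transcript level is required of a point mutation, so these values do not check the labels. Arrays had 75th percentiles of intensity between 470.7 and 1389, no saturated spot, and between 56.5% and 72.7% of probes well above background.

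All 10 members were higher in liver than in brain, heart or muscle, in WT and in *Rap1* KI/KI mice. With limma and Benjamini-Hochberg adjustment over all probes tested, 10 of 10 passed an adjusted p of 0.05 in each of the 6 comparisons. *Apoa4* and *Apob* met the filter on low values only through their liver arrays, which fixes their direction, and the other 8 members would have met it without liver. Of all probes, 39.0% passed in the same direction for WT liver against brain, 26.4% against heart and 28.0% against muscle, and for *Rap1* KI/KI liver 41.3%, 29.6% and 30.0%. The median difference over the members on the log2 scale was 10.9 for WT liver minus brain, 9.74 for liver minus heart and 9.92 for liver minus muscle, where the medians over all probes were 0.33, 0.03 and -0.06. The members' medians in *Rap1* KI/KI mice were 10.8, 9.28 and 9.76. These include members not above background outside liver, and with each of those at its lower bound the medians were 10.2, 9.74 and 9.92 in WT and 10.3, 9.26 and 9.64 in *Rap1* KI/KI mice.

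**Figure D1:**
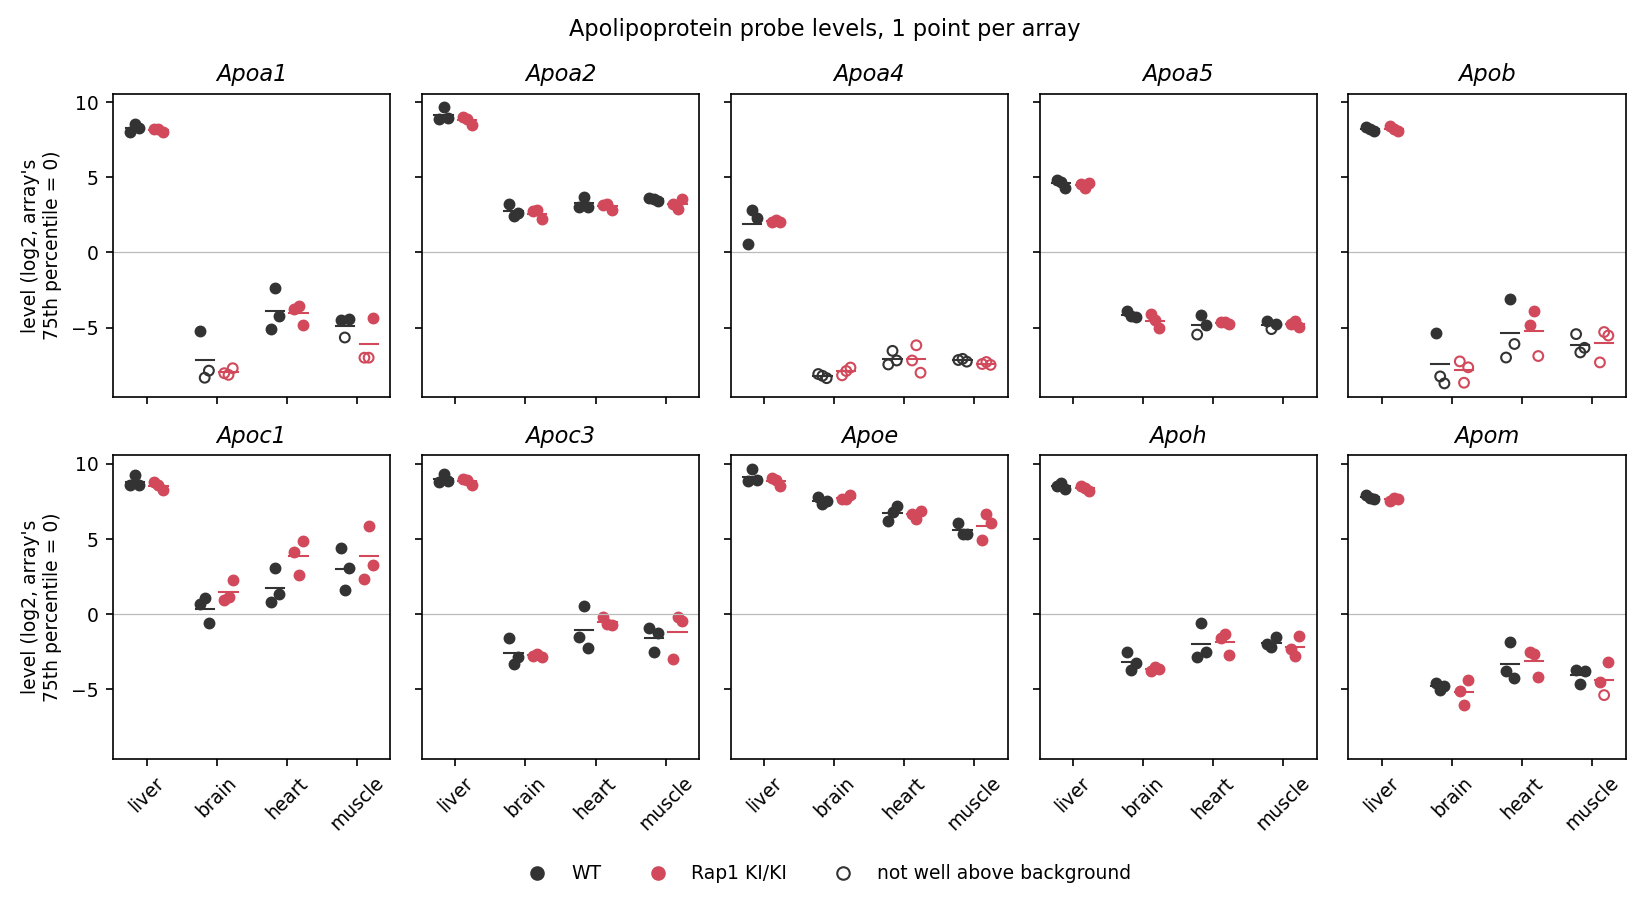
Level (log2, the array's 75th percentile set to 0) of the used probe of each member on each of the 24 arrays, by tissue, WT in black and *Rap1* KI/KI in red, with a bar at the group mean of 3 mice. Open circles are arrays where the probe was not well above background. Each gene is highest in liver, *Apoe* is nowhere below 4.96, and *Apoa4* is well above background in liver alone.

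*Apob* and *Apoa1* were high in liver and at or near background in most other arrays. *Apob*, read by its brighter probe, had levels of 8.35, 8.25 and 8.05 in the 3 WT livers and 8.42, 8.24 and 8.05 in the 3 *Rap1* KI/KI livers. In muscle it was not well above background on any of 6 arrays, so WT liver was at least 10319-fold and *Rap1* KI/KI liver at least 11878-fold higher. In brain it passed background on 1 array of 6 and in heart on 3 of 6. A second *Apob* probe was dimmer in liver (4.09 to 6.46, the highest in WT2) and above background on 5 of 6 heart and 2 of 6 muscle arrays. With it WT liver exceeded muscle 1424-fold (10.5 on the log2 scale, SE 0.73), so the size of the *Apob* contrast depends on the probe. *Apoa1* levels were 8.02, 8.54 and 8.29 in WT liver and 8.19, 8.22 and 8.02 in *Rap1* KI/KI liver. *Rap1* KI/KI brain held no array with *Apoa1* above background, and the liver of these mice was at least 19948-fold higher. In heart *Apoa1* was above background on all 6 arrays at levels between -5.11 and -2.36, and WT liver exceeded WT heart by 12.2 (SE 0.82; adjusted p = 2.65e-07).

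*Apoa2* presents the contrast differently according to the probe. The brighter probe read 8.87, 9.66 and 8.91 in WT liver and 9.04, 8.88 and 8.49 in *Rap1* KI/KI liver, and between 2.22 and 3.71 on the 18 other arrays. Its second probe, for the same transcript accession, was almost as bright in liver (8.17 to 9.29) but fell to between -2.63 and 2.42 elsewhere. WT liver exceeded WT brain by 6.41 (SE 0.30), or 85.3-fold, with the first probe and by 10.4 (SE 0.56), or 1312-fold, with the second. Both passed the test, and only the size differs. Before scaling, the first probe read 83.2% to 87.7% of the brightest probe of its liver array and ranged 1.14-fold. Whether this bears on the size was not tested.

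Among the exchangeable proteins, *Apoa4*, which mouse intestine and liver secrete, was the member restricted most tightly by detection. It was well above background on all 6 liver arrays and on none of the 18 others. Its liver levels were 0.55, 2.79 and 2.29 in WT and 2.04, 2.17 and 2.05 in *Rap1* KI/KI mice, where WT1 lay apart from the other 5. WT liver was at least 294-fold higher than brain, at least 171-fold higher than heart and at least 127-fold higher than muscle. The bounds for *Rap1* KI/KI mice were 299-fold, 232-fold and 167-fold. *Apoa5*, an activator of lipoprotein lipase, had liver levels from 4.27 to 4.79, and outside liver between -5.47 and -3.91 with 16 of 18 arrays above background. Its WT liver exceeded brain by 8.74 (SE 0.32), heart by 9.41 (0.32) and muscle by 9.41 (0.32). *Apoc3*, an inhibitor of lipoprotein lipase, ran from 8.57 to 9.34 in liver. It was detected on every array, between -3.31 and 0.53 outside liver. Its second probe, for another transcript accession, was dim in liver (0.41 to 0.99) and between -3.32 and -2.37 elsewhere. The liver to brain difference in WT was 11.6 (SE 0.68) with the first *Apoc3* probe and 3.33 (SE 0.22) with the second.

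*Apom*, a carrier of sphingosine-1-phosphate, and *Apoh* showed the liver pattern. Their scatter inside liver after scaling was small (SD 0.12 and 0.19), as was that of *Apob* (0.15) and *Apoa1* (0.19). *Apom* ran from 7.54 to 7.90 over the 6 livers and from -6.01 to -1.84 elsewhere. *Apoh* ran from 8.19 to 8.73 in liver and from -3.79 to -0.58 elsewhere. For WT liver minus WT brain the *Apom* difference was 12.6 (SE 0.51; adjusted p = 2.59e-09 with limma) and the *Apoh* difference 11.7 (SE 0.52; adjusted p = 4.85e-09).

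*Apoe* was the member with the smallest fall outside liver. It was printed at 10 spots on each array, whose log2 values had a median SD of 0.058, and it was well above background on all 24 arrays. WT levels were 8.89, 9.63 and 8.91 in liver, 7.78, 7.32 and 7.52 in brain, 6.20, 6.78 and 7.21 in heart and 6.09, 5.31 and 5.36 in muscle. The liver and brain values did not overlap, nor did those of brain and heart or of heart and muscle. In *Rap1* KI/KI mice they were 9.07, 8.90 and 8.52 in liver, 7.65, 7.64 and 7.91 in brain, 6.68, 6.33 and 6.89 in heart and 4.96, 6.64 and 6.07 in muscle, where one muscle array reached into the range of heart. The order of the means was liver, brain, heart, muscle in both genotypes. In WT mice liver exceeded brain 3.04-fold (1.60 on the log2 scale, SE 0.33; adjusted p = 0.00117), heart 5.33-fold and muscle 11.8-fold. Before scaling, the *Apoe* probe ranged only 1.17-fold over the livers of both genotypes, where the 75th percentile ranged 2.42-fold. It read 83.8% to 87.6% of the brightest probe of its array. Whether this bears on these folds, or on the small fall outside liver, was not tested. The liver to brain difference in *Rap1* KI/KI mice was 1.10 (SE 0.37; adjusted p = 0.0203). The limma test did not pass between the neighbours brain and heart in WT (0.81, SE 0.33; adjusted p = 0.0566) and passed in *Rap1* KI/KI mice (1.10, SE 0.37; adjusted p = 0.0252), and between heart and muscle the reverse held, with 1.14 (SE 0.33; adjusted p = 0.0229) in WT and 0.74 (SE 0.37; adjusted p = 0.165) in *Rap1* KI/KI mice. These calls were lost without some single mice, which also leaves fewer mice per tissue, so the loss does not show that those mice decided them. The WT heart to muscle difference was 0.98 without WT2 (adjusted p = 0.172) and 0.79 without WT3 (adjusted p = 0.234), and the *Rap1* KI/KI brain to heart difference was 1.00 without KI2 (adjusted p = 0.110) and 1.14 without KI3 (adjusted p = 0.0995). The change of these tissue differences with genotype was tested by the interaction given further on, and did not pass.

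The size of the *Apoe* differences against brain rested on the scaling. With quantile normalization it was 0.60 in WT (adjusted p = 0.0662) and 0.32 in *Rap1* KI/KI mice (adjusted p = 0.485), so neither passed, while WT brain exceeded heart by 1.81 (adjusted p = 0.000169). In *Rap1* KI/KI mice the liver to brain difference also missed the threshold when any 1 of the 3 mice was left out (adjusted p = 0.0514 without KI1, 0.0789 without KI2 and 0.0534 without KI3).

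Outside liver, the calls mostly placed brain below heart or muscle, with *Apoe* running the other way. In WT mice 2 of 10 members passed between brain and heart, where 56.1% of all probes passed in either direction, 4 of 10 between brain and muscle (59.0% of probes) and 1 of 10 between heart and muscle (29.4%). In *Rap1* KI/KI mice the counts were 7 of 10 (56.4%), 5 of 10 (58.4%) and 1 of 10 (26.8%). Most calls over all probes also placed brain lower. Of 22845 calls between WT brain and heart 9623 were higher in brain, and of 24030 against muscle 9948. For *Rap1* KI/KI mice these were 9139 of 23276 and 9634 of 24064. The WT calls were *Apoa1* and *Apom*, lower in brain than in heart by 3.23 and 1.51, *Apoa1*, *Apoa2* and *Apoc1*, lower in brain than in muscle by 2.27, 0.81 and 2.66, and *Apoe*, higher in brain than in muscle by 1.95 and in heart than in muscle by 1.14. *Apoa1* was above background in 1 of the 3 WT brains. In *Rap1* KI/KI mice *Apoc1*, *Apoc3*, *Apom* and *Apoh* were lower in brain than in heart, by 1.78 to 2.41, and *Apoc1*, *Apoc3* and *Apoh* lower in brain than in muscle, by 1.50 to 2.39, while *Apoe* was higher in brain in both. The remaining calls there have bounds only, since *Apoa1* and *Apob* were not well above background in any *Rap1* KI/KI brain. *Apoa1* was at least 4.26-fold and *Apob* at least 1.91-fold lower in brain than in heart, and *Apoa1*, above background in 1 of 3 muscles, at least 1.01-fold lower in brain than in muscle. With the mouse as a block, *Apoa1* between WT brain and muscle (adjusted p = 0.0544) and *Apoc3* between *Rap1* KI/KI brain and muscle (adjusted p = 0.0553) no longer passed, while *Apoa4* between WT brain and heart, not above background in either, did (adjusted p = 0.0452). The one call between heart and muscle there was *Apoa1*, higher in heart by 2.08 (SE 0.62; adjusted p = 0.0301 with limma). Without the WT1 brain and WT2 heart arrays, described next, 11 calls rather than 7 were made over these 3 WT pairs. Without WT3 there were 2, and without KI1 or KI2 the 13 calls of *Rap1* KI/KI mice were 7 or 6. RNA of brain and liver was extracted with another kit than that of heart and muscle. Kit and tissue cannot be told apart across those pairs, liver against heart and muscle included.

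One brain and one heart array held the highest albumin of their tissue and the highest level of several liver-made members. *Alb* had levels of 0.57 in the WT1 brain and between -6.04 and -3.86 in the other 5 brains. The WT1 brain was also the brain with the highest *Apoa1* (-5.22, against -8.34 to -7.70), *Apob* (-5.36, against -8.71 to -7.25), *Apoc3* (-1.62, against -3.31 to -2.62) and *Apoh* (-2.51, against -3.79 to -3.26). In heart the WT2 array had the highest *Alb* (2.95, against -0.46 to 1.76) and the highest *Apoa1* (-2.36), *Apob* (-3.08), *Apoc3* (0.53), *Apoh* (-0.58) and *Apom* (-1.84). *Apom* in brain was highest in KI3. No muscle array held the highest *Alb* together with the highest level of any of these members. *Alb* there was highest in WT3 (0.49), where none of these members had its highest muscle level. That level was in KI2 for *Apob* (-5.30) and *Apoc3* (-0.17) and in KI3 for *Apoa1* (-4.37), *Apoh* (-1.45) and *Apom* (-3.21). KI3 also had the highest summed level of the 8 hepatocyte genes in muscle, 2.07 against 1.99 in WT3, with *Alb* at 0.18. The summed level of the 8 hepatocyte genes ran from -1.04 to 1.52 in WT brain, -1.74 to -0.81 in *Rap1* KI/KI brain, 1.98 to 4.74 in WT heart, 3.82 to 4.20 in *Rap1* KI/KI heart, 0.63 to 1.99 in WT muscle and -0.25 to 2.07 in *Rap1* KI/KI muscle. Between 4 and 8 of the 8 were above background on each of these arrays. In brain *Ahsg*, *Fgb*, *Serpinc1*, *F2*, *Hpx* and *Cps1* were also highest in WT1, but *Tat* was lowest there (-2.47). In heart *Fgb*, *Serpinc1*, *F2* and *Hpx* were also highest in WT2. *Ahsg* (4.00, against 3.81 in WT2) and *Tat* (-0.79, against -1.20) were highest in the KI3 heart, and *Cps1* in the WT1 heart (-3.83, against -3.89). The part of liver transcripts in the members' levels outside liver was not tested.

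**Figure D2:**
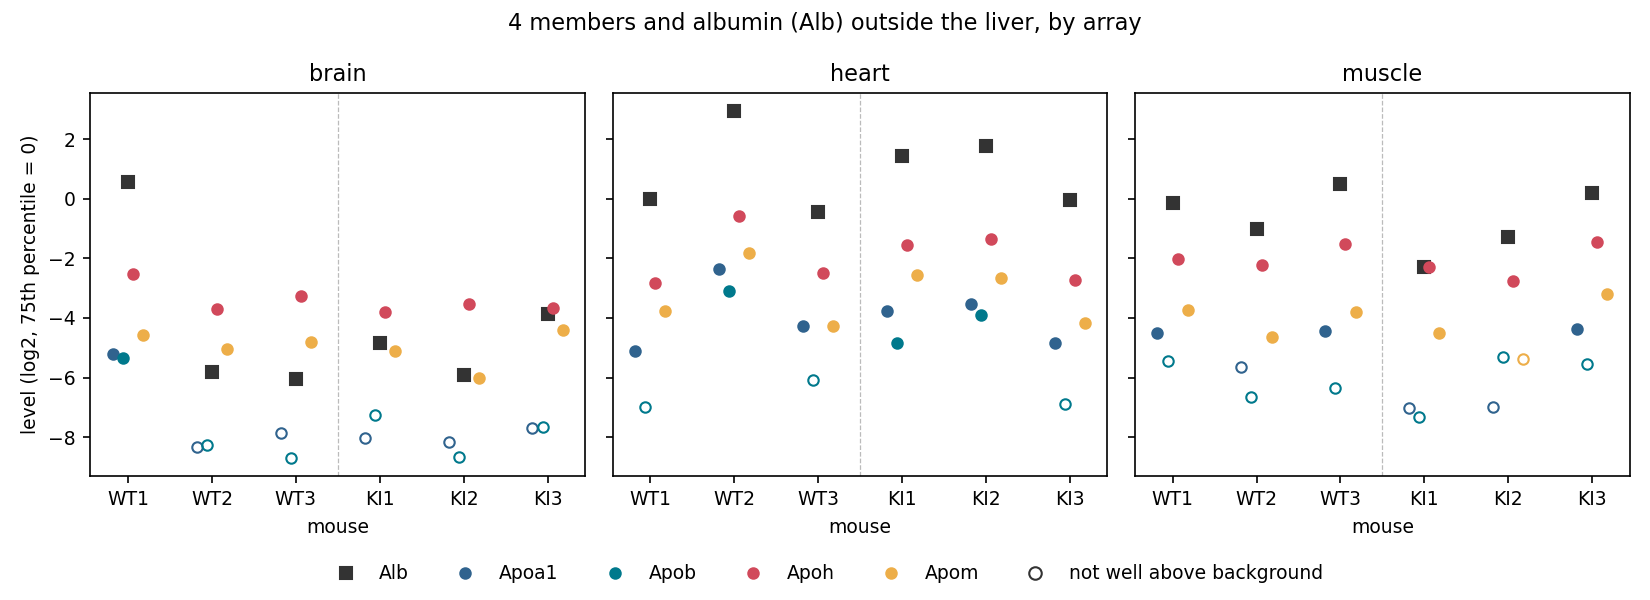
Levels of *Apoa1*, *Apob*, *Apoh* and *Apom* (circles, open where not well above background) and of albumin (black squares) on each brain, heart and muscle array, WT mice left and *Rap1* KI/KI mice right of the dashed line. Each gene is to be read along its own row of points. The WT1 brain and the WT2 heart hold the highest albumin of their tissue (0.57 and 2.95) and the highest *Apoa1*, *Apob* and *Apoh*.

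*Apoc1*, an inhibitor of lipoprotein uptake that hepatocytes and macrophages make, was detected on all 24 arrays and varied widely between mice outside liver. Liver levels were 8.57, 9.23 and 8.62 in WT and 8.76, 8.61 and 8.23 in *Rap1* KI/KI mice. WT means were 3.03 ± 1.38 (SD, n = 3) in muscle, 1.74 ± 1.20 in heart and 0.37 ± 0.87 in brain, and *Rap1* KI/KI means were 3.85 ± 1.83, 3.87 ± 1.13 and 1.46 ± 0.73. Heart and muscle did not differ past the limma test in either genotype (adjusted p = 0.222 in WT and 0.986 in *Rap1* KI/KI mice), and brain and heart passed in *Rap1* KI/KI mice alone (adjusted p = 0.0281, against 0.138 in WT). The calls that *Apoc1* was lower in brain were lost without some single mice, which also leaves fewer mice per tissue. WT brain minus muscle was -2.66 (adjusted p = 0.00870 with limma), but -2.13 without WT1 (0.0599) and -2.15 without WT3 (0.124). *Rap1* KI/KI brain minus heart was -2.41, and -2.02 without KI1 (0.156) and -2.34 without KI3 (0.110). *Rap1* KI/KI brain minus muscle was -2.39 (0.0285), and -2.87 without KI1 (0.0622) and -1.21 without KI2 (0.126). In the other direction, WT heart against muscle passed without WT2 (-2.67; adjusted p = 0.0199).

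Between genotypes no member passed the limma test in any tissue. The tested members were 10 in liver, 7 in brain, 9 in heart and 8 in muscle, where at least 3 of the 6 arrays were above background, and 0 of them reached an adjusted p of 0.05. The same held of all probes, with 0% of 35240 in liver, 37836 in brain, 34848 in heart and 32382 in muscle. At an unadjusted p of 0.05 the members gave 0 of 10 in liver (2.13% of all probes), 0 of 7 in brain (2.62%), 1 of 9 in heart (7.51%) and 0 of 8 in muscle (2.48%). For the used probes, the WT and *Rap1* KI/KI values overlapped in every tissue in which a member was tested, where 5.84%, 7.73%, 14.7% and 6.44% of all probes had groups that did not. Among the other tested probes of the members, the second *Apoc3* probe in brain had no overlap, with a difference of -0.27. *Apoa4* in muscle, not above background there and not tested, had none either. The differences ran from -0.35 to 0.21 in liver, -0.51 to 1.09 in brain, -0.19 to 2.14 in heart and -1.26 to 0.82 in muscle on the log2 scale. The test of an interaction between genotype and tissue over the 24 arrays called 0 of 10 members, and 0% of 43675 probes. At an unadjusted p of 0.05 it gave 0 of 10 members and 2.94% of probes, the lowest member p being that of *Apoc1* (0.268).

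**Figure D3:**
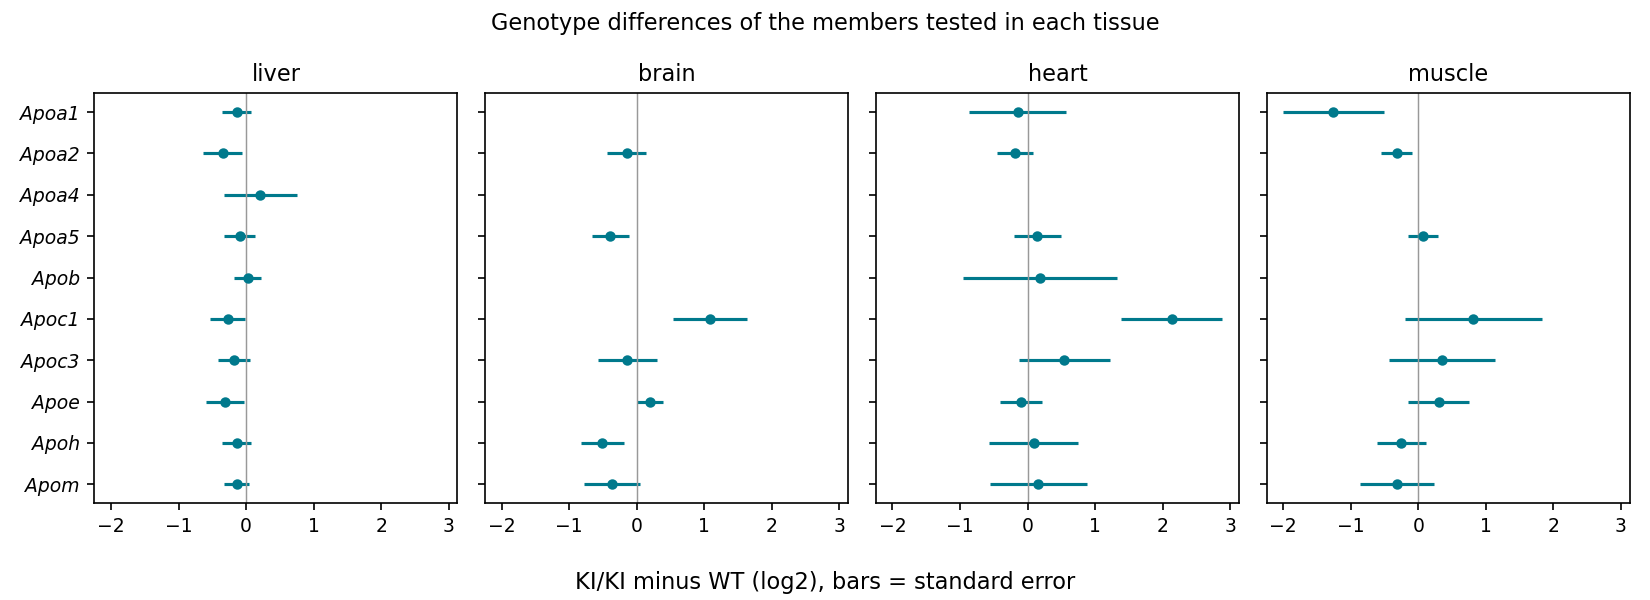
*Rap1* KI/KI minus WT difference (log2) of each member tested in each tissue, with its standard error from limma, 3 mice per genotype. The liver differences lie between -0.35 and 0.21, and the largest value, *Apoc1* in heart at 2.14, has an SE of 0.75.

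*Apoc1* in heart was the 1 member below an unadjusted p of 0.05. Its levels were 0.80, 3.09 and 1.33 in WT and 4.13, 2.63 and 4.85 in *Rap1* KI/KI hearts. The lowest *Rap1* KI/KI heart lay below the highest WT heart. The difference was 2.14 (SE 0.75; adjusted p = 0.646 with limma). The hearts lay on 2 slides. On the slide with 2 hearts of each genotype the difference was 1.44, and on that with 1 of each it was 3.53. With the slide as a block the adjusted p was 0.513, and over all alternatives run it lay between 0.458 and 1.00. The KI1 and KI3 hearts, which had the highest *Apoc1*, also had the highest levels of the fat cell hormone gene *Adipoq*, 4.05 and 4.86, against 0.42 in KI2 and -4.23, 0.72 and -0.15 in WT. Of the 6 fat cell genes, 5 or 6 were above background on each heart array, and their summed level ran from 0.21 to 4.94 in WT and from 5.17 to 8.58 in *Rap1* KI/KI hearts. Without the KI1 and KI3 hearts, which leaves 1 *Rap1* KI/KI heart whose spread is assumed to be that of the WT hearts, the *Apoc1* difference was 0.90. Those hearts are also the pair with the highest *Apoc1*, so a smaller difference was bound to follow. The part of fat cell RNA in it was not tested.

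In muscle the mice with high and low *Apoc1* were again those with high and low *Adipoq*. *Apoc1* was 4.39, 1.64 and 3.08 in WT and 2.35, 5.90 and 3.30 in *Rap1* KI/KI muscles, and *Adipoq* 5.62, 1.99 and 3.93 in WT and 4.11, 6.56 and 4.20 in *Rap1* KI/KI muscles. KI2 and WT1 were highest for both genes and WT2 lowest. The genotype difference of *Apoc1* was 0.82 (SE 1.01), and -0.21 without KI2. Fat cell genes were 5 or 6 of 6 above background per muscle array, with summed levels from 6.52 to 9.56 in WT and 8.18 to 9.87 in *Rap1* KI/KI mice.

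**Figure D4:**
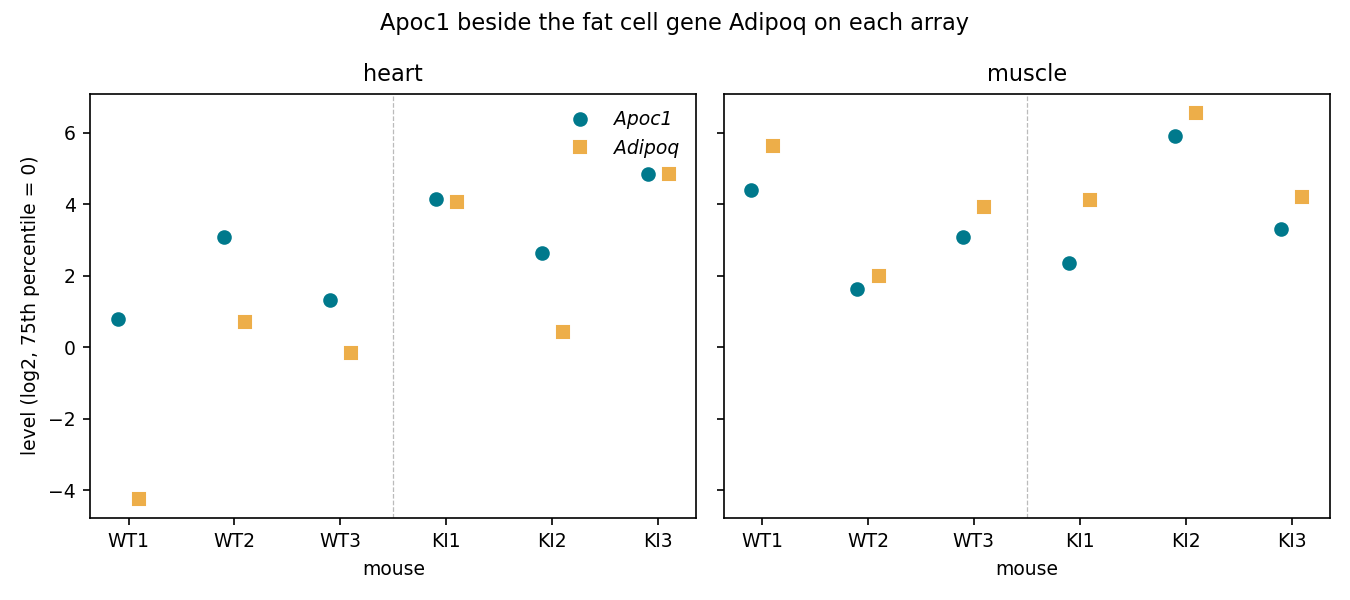
Level of *Apoc1* (circles) and of the fat cell gene *Adipoq* (squares) on each heart and muscle array, WT mice left and *Rap1* KI/KI mice right of the dashed line. In heart both genes are highest in KI1 and KI3, and in muscle both are highest in KI2 and lowest in WT2.

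In brain *Adipoq* was not above background on any array. *Apoc1* was 0.66, 1.06 and -0.61 in WT and 0.93, 1.15 and 2.30 in *Rap1* KI/KI brains, a difference of 1.09 (SE 0.55; adjusted p = 1.00 with limma). The brain with the highest *Apoc1*, KI3, also had the highest summed level of 6 macrophage genes, 6.47, all 6 above background, against 5.03 to 5.41 in WT and 5.09 and 5.36 in the other 2 *Rap1* KI/KI brains. *C1qa*, a complement gene of microglia, was 3.77 there, against 1.47 to 2.52 in the other 5 brains, and *Cd68* was 3.54, against 0.99 to 1.59. The summed level of 5 astrocyte genes was highest in KI3 too, at 6.66. It ran from 5.41 to 5.73 in WT and from 5.74 to 6.66 in *Rap1* KI/KI brains, ranges that all but touch. Of all single probes in brain, 7.73% had groups that did not overlap. That of 4 choroid plexus genes ran from 4.54, in WT3, to 5.95 in WT and from 5.93 to 6.85 in *Rap1* KI/KI brains, and WT3 was the brain with the lowest *Apoc1*. Other arrays did not pair in this way. The choroid plexus sum of 6.85 was that of KI1, where *Apoc1* (0.93) was the lowest of the *Rap1* KI/KI brains. The macrophage sum of 5.41 was that of WT1, where *Apoc1* (0.66) lay below that of WT2 (1.06). The astrocyte and choroid plexus sums are not particular to brain. In liver they ran higher, from 7.83 to 8.58 and from 8.07 to 9.06. The part of these cell types in the *Apoc1* level was not tested. On the slide that held 1 brain of each genotype, both from the 5-month-old mice, the *Apoc1* difference was 0.27, and on the slide with 2 of each it was 1.50.

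In liver 8 of the 10 members were lower in *Rap1* KI/KI mice, none past the test. *Apoa2* differed by -0.35 (SE 0.28), *Apoe* by -0.32 (0.28), *Apoc1* by -0.27 (0.26) and *Apoa4* by 0.21 (0.54). The second *Apob* probe differed by -0.92 (0.54), with the WT2 liver above the other 5. These directions depended on the scaling. With quantile normalization 6 of the 10 changed sign, so that 8 were higher in *Rap1* KI/KI mice, and with no scaling between arrays, which adds 0.32 to the difference of every probe, 7 changed sign. The brightest members show the arithmetic. The *Apoe* probe read 530927, 455118 and 524142 in the WT livers and 511782, 485538 and 510006 in the *Rap1* KI/KI livers before scaling, a range of 1.17-fold, at 83.8% to 87.6% of the brightest probe of the same array. The 75th percentile of the 6 arrays ranged 2.42-fold, from 573.1 in WT2 to 1389 in KI3. After scaling, the *Apoe* level therefore ranged 2.16-fold, highest in WT2 and lowest in KI3. For 6 of the 10 members the highest liver level was that of WT2 and the lowest that of KI3. *Apob* and *Apom*, at 33.0% to 62.2% and 23.2% to 46.8% of the brightest probe, had raw ranges of 2.12 and 2.27-fold and ranges of 1.30 and 1.29-fold after scaling, so for them the scaling drew the arrays together.

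**Figure D5:**
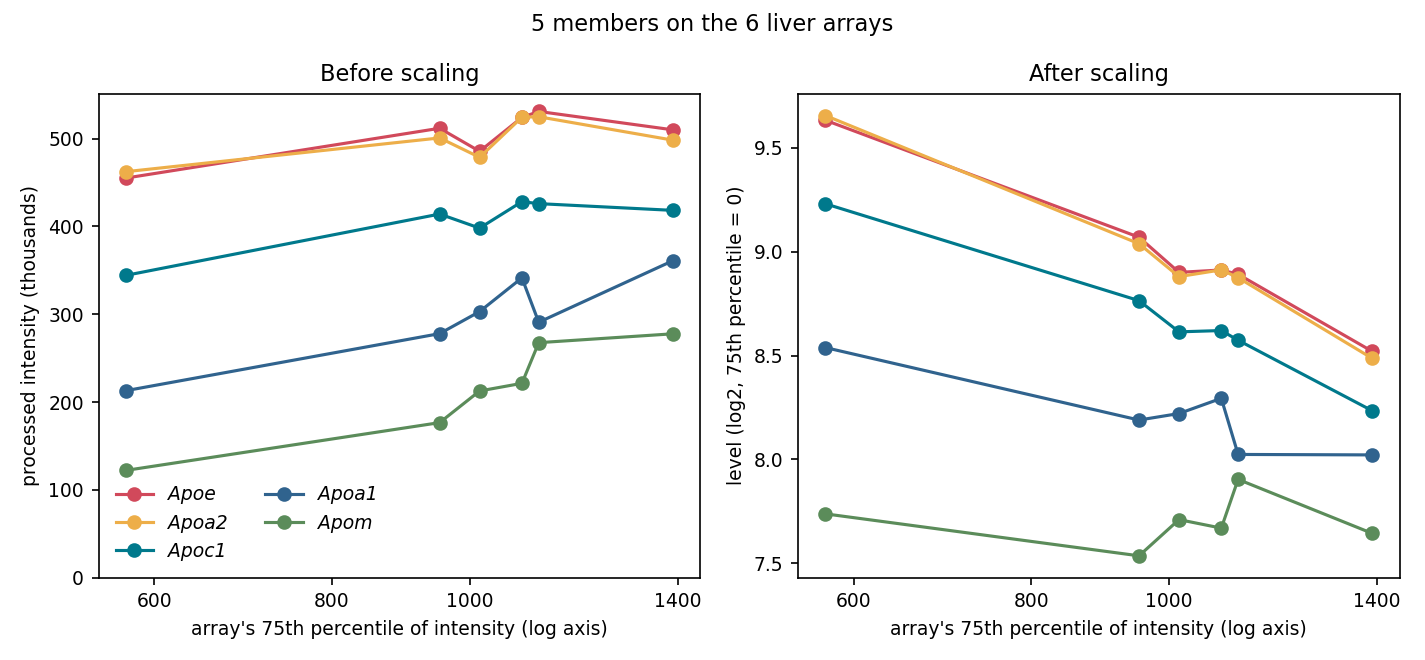
5 members on the 6 liver arrays, ordered by each array's 75th percentile of intensity (log axis). Left, the processed intensity on a linear axis that starts at 0. Right, the level after scaling (log2). *Apoe* and *Apoa2* are nearly level on the left and fall from left to right after scaling, while *Apom* rises on the left and is nearly level on the right.

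The genes with the profile most like that of a member were sought for the 5 members detected on all 24 arrays, by Pearson's r across the 24 arrays (from 6 mice) and over 12701 genes. *Apoa2* was nearest to *Apoh* (r 0.995), *Pemt* (0.995) and *Serpina11* (0.994), *Apoh* to *Hrg* (0.997), *Proc* (0.997) and *Apoa2* (0.995), and *Apoc3* to *Asgr2* (0.992), *Proc* (0.991) and *Apoh* (0.990). *Apoc1* was nearest to *Pygl* (0.982), *C2* (0.978) and *Rbm47* (0.976). *Apoe* had no neighbour of that closeness, the nearest being *Os9* (0.966), *Cryzl2* (0.964) and *Fbxo21* (0.960). The 5 members were all higher in liver than in the other tissues, and how far such values rest on that difference was not tested.

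The rest of the lipoprotein pathway was read as 52 genes in 6 lists, all on the array. Of them 44 were higher and 5 lower in WT liver than in WT brain, 40 and 6 against heart, and 41 and 6 against muscle, and in *Rap1* KI/KI mice the counts were 45 and 6, 40 and 6, and 42 and 6. Beside the shares of all probes higher in liver given above, 28.6%, 24.6% and 27.5% of all probes were lower in WT liver than in brain, heart and muscle, and 29.6%, 29.5% and 31.9% in *Rap1* KI/KI liver. All 7 liver transcription factors were higher in liver in each of the 6 comparisons, with a median difference of 7.61 for WT liver minus brain. They include *Hnf4a* (WT liver minus brain 14.8, SE 0.90, with 1 of 3 brains above background). Of 11 other apolipoproteins and particle proteins 10 were higher in WT liver than in brain, with a median of 10.8, among them the lipase cofactor *Apoc2* (10.8, SE 0.50), *Apoc4* (14.5, SE 0.67, 1 of 3 brains above background) and *Apof* (12.9, SE 0.70). The exception was *Apod*, a lipocalin of glia and many other tissues, with mean WT levels of -2.34 in liver, 6.17 in brain, 2.58 in heart and 5.43 in muscle.

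Of 7 assembly genes 6 were higher in WT liver than in brain, among them *Mttp* (7.20, SE 0.30), the transfer protein that loads lipid onto *Apob*, and with the *Apob* mRNA editing enzyme *Apobec1* (3.68, SE 0.25). Of 10 genes of plasma remodelling 9 were higher against WT brain, including *Lcat*, which esterifies cholesterol (5.50, SE 0.34), hepatic lipase *Lipc* (at least 503-fold, not above background in WT brain) and the lipase inhibitor *Angptl4* (6.61, SE 0.29). Phospholipid transfer protein *Pltp* did not pass there (1.00 on the log2 scale, SE 0.41; adjusted p = 0.0518). Lipoprotein lipase *Lpl* ran the other way against heart and muscle, with WT liver lower than heart by 6.22 (SE 0.42) and lower than muscle by 4.11 (SE 0.42).

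Of 11 receptors and uptake genes 7 were higher and 3 lower in WT liver than in brain, with *Lrp1*, a receptor for remnant particles, at 1.56 (SE 0.30) and *Scarb1*, the high density lipoprotein receptor, at 4.30 (0.23). Of 6 sterol efflux genes 5 were higher, with *Abca1*, which loads lipid onto *Apoa1*, at 3.94 (SE 0.33). Between genotypes none passed the limma test among the 51 tested in liver, 42 in brain, 46 in heart and 41 in muscle. At an unadjusted p of 0.05 there were 1 in liver, 3 in brain, 2 in heart and 3 in muscle, where all probes gave 2.13%, 2.62%, 7.51% and 2.48%. Among them, named after their values were seen, were *Pon1* in heart (2.37, SE 0.97), *Angptl4* in muscle (1.90, SE 0.68) and *Angptl8* in liver (-1.85, SE 0.78), together with *Apod* and *Nr1h3* in brain and *Cd36* and *Abcg1* in muscle.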

How the data were processed

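Total RNA was labelled with Cy3 and hybridised to 1-colour Agilent arrays read with Feature Extraction 12.0.3.1. The deposited intensities, per the file headers, had background already subtracted. A deposited table of scores holds z-scores within each array. Control spots (3671 per array) and outlier flags were left out, spots of 1 probe were averaged, log2 was taken and the array's 75th percentile subtracted. RefSeq accessions named 28331 probes. Of several probes for a gene, the brightest on average over the 24 arrays was read.

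The methods of the study name no test for the arrays. Limma 3.58.1 (lmFit, eBayes, R 4.3.3) was used, with Benjamini-Hochberg adjustment over all tested probes, those well above background on at least 3 arrays of the fit. Genotypes were compared within a tissue (6 arrays), tissues within a genotype (12) and the interaction over 24. An "at least" fold sets the bright group's mean against, on each dim array, the higher of the lowest signal well above background and the probe's own. Replicate numbers are mice, so they pair the tissues. Deviations of a mouse's tissues from their group means correlated between -0.32 and 0.38 (median 0.09, 36 pairs). All 6 livers shared a slide, and all muscles another. Liver shared no slide with heart or muscle, nor brain with muscle, so a difference between those tissues is also one between slides. Alternatives changed the scaling, the background correction (normexp, offset 50, on median rather than mean signals), the filter, the probes, the threshold, the mice and the treatment of slide, age and mouse. Scripts were tested on simulated data. Members, lists and the rule for named genes (all members, a fixed part of the pathway list, the 3 nearest profiles) were chosen with earlier results of these data known. Some pathway genes counted in the lists are not reported here by name. Replicates are separate mice, and their number limits the precision.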

Additional observations from a re-analysis of the deposited data

How the results depend on the processing

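Calls between genotypes and for the interaction stayed at 0 members under every alternative run. Counts of members higher in liver were 10 in each of the 6 comparisons and stayed between 8 and 10, except that requiring detection on every array left only 6 testable, of which 6 passed in each. With 1 mouse left out they were 9, or 8 for *Rap1* KI/KI liver against brain, since *Apoa4*, detected on 3 liver arrays per genotype, was then not tested and *Apoe* missed the threshold in that comparison. Over brain, heart and muscle in WT mice, 7 calls became 14 with normexp, 3 at an adjusted p of 0.01, 12 with slide as a fixed term, 11 without the WT1 brain and WT2 heart arrays and 2 to 7 with 1 mouse left out (2 without WT3). In *Rap1* KI/KI mice 13 calls became 5 at 0.01, 17 with normexp and 6 to 11 with 1 mouse left out (7 without KI1, 6 without KI2). Those with slide as a fixed term, with no scaling and without named arrays were chosen after seeing the data, as were the 2-month-old mice alone.

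Of single genes, the *Rap1* KI/KI minus WT difference reversed with quantile normalization for *Apoc1* in liver (0.034), *Apoe* in liver (0.0028) and *Apoe* in heart (0.10), and with no scaling for the same 3 (0.045, 0.000304 and 0.016). It reversed for *Apoa4* in liver in the 2-month-old mice alone (-0.43). With 1 mouse left out the ranges were -0.45 to 0.67 for *Apoa4* in liver, -0.37 to 0.14 for *Apoe* in heart, -0.21 to 1.56 for *Apoc1* in muscle and -0.071 to 0.77 for *Apoe* in muscle. The *Apoc1* difference between *Rap1* KI/KI heart and muscle reversed without the KI1 and KI3 heart and KI3 muscle arrays (-1.49) and ranged from -0.85 to 1.67 with 1 mouse left out. The causes of these changes were not tested. The 72 tissue differences of single genes were further counted once per alternative, so the same difference can recur. In 37 such cases a difference was no longer past the threshold, *Apoc1* in WT liver minus muscle with slide as a fixed term among them. In 8 cases one newly passed it, and in 1062 it stayed on its side. The replicate block of mouse changed 3 calls between brain, heart and muscle (*Apoa1*, *Apoa4* and *Apoc3*) and no other of the members' calls. Its consensus correlation over 24 arrays was 0.02. The paired difference of *Apoe* between WT liver and brain was again 1.60. Because every mouse gave every tissue, the block could not change the size of a tissue difference, so this value is no check on it. No signal was saturated, and probes near background, such as *Apoa4* and *Apob* outside liver, give bounds only.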
